A study of Mus musculus with 18 samples.

Results

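Followed here were 7 genes of RNA-binding proteins, most of which are known to shorten the life of mRNAs. The genes were Zfp36, Zfp36l1 and Zfp36l2 of the tristetraprolin family, Zc3h12a (Regnase-1), Rc3h1 and Rc3h2 (Roquin-1 and Roquin-2) and Mex3b. They were chosen by gene symbol as known regulators of mRNA decay. All 7 had a value, and all 7 were among the 10877 genes tested. RNA sequencing had been done on 18 libraries of naive CD4+ T cells sorted from spleens of mice of the C57BL/6J background, in 6 groups of 3. The groups were Creld1 conditional knockout (cKO) and control cells kept 8 h in culture with antibodies to CD3 and CD28 at 1 µg/ml each (stimulated), cKO and control cells kept 8 h in culture without them (unstimulated), and cKO and control cells taken directly after the sort (fresh). Creld1 encodes a membrane protein with epidermal growth factor-like domains, and its deletion was driven by Cre under the CD4 promoter, which is active from a thymic stage onward, so T cells of other lineages carry the deletion too. The labels call the other genotype only control, give neither an age nor the alleles of the controls, and carry the same mouse number on every library of a group. Nothing there says that the libraries of a group came from separate animals, so p-values measure the spread between libraries, which may be technical.

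Tristetraprolin proteins bind AU-rich elements in the 3′ untranslated region (3′ UTR) of an mRNA through paired zinc fingers and bring the CCR4-NOT complex, which removes the poly(A) tail. Regnase-1 is an endonuclease that cuts stem-loops in 3′ UTRs and is itself cleaved by the protease Malt1 after T cell receptor engagement. Roquin proteins bind stem-loops of the constitutive decay element type and also bring CCR4-NOT. Mex3b carries RNA-binding KH domains and a RING finger. In T cells the tristetraprolin, Regnase-1 and Roquin proteins are known for holding down mRNAs of cytokines and co-stimulatory receptors, and Zfp36l2 is known as an abundant transcript of resting T cells. Only mRNA was measured here, not protein or activity.

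The mRNAs of Zfp36, Zfp36l1 and Zfp36l2 carry the element that their own family reads. Those of the Roquin genes Rc3h1 and Rc3h2, which have the longest 3′ UTRs of the 7, carry it too. The nonamer TTATTTATT, the core AU-rich site of tristetraprolin, stood in the 3′ UTR of 5 of the 7 genes, once in each. It was found in 8.51% of the 10725 tested genes with an annotated 3′ UTR (longest annotated 3′ UTR per gene, sense strand, GENCODE annotation of GRCm38). UTR length differs between these genes. Among tested genes with a 3′ UTR within 20% of the same length the share was 4.58% for Zfp36 (774 bases), 9.01% for Zfp36l1 (1835 bases), 9.05% for Zfp36l2 (1822 bases), 25.3% for Rc3h1 (7181 bases) and 21.4% for Rc3h2 (5331 bases). The nonamer was not found in the 3′ UTR of Zc3h12a (856 bases) or of Mex3b (1306 bases), whose length classes held it in 5.20% and 7.42% of genes. The 5 sites are given with the nonamer in capitals, beside the cluster of Tnf, the textbook tristetraprolin target, whose 3′ UTR held 5 overlapping or neighbouring nonamers. They lie on GRCm38 at chr7:28376949-28376977 (minus strand) for Zfp36, chr12:80108165-80108193 (minus) for Zfp36l1, chr17:84184912-84184940 (minus) for Zfp36l2, chr1:160970045-160970073 (plus) for Rc3h1, chr2:37373285-37373313 (minus) for Rc3h2 and chr17:35199687-35199715 (minus) for Tnf.
Zfp36: tgacgactTTATTTATTgtattaagattt
Zfp36l1: ctgttggaTTATTTATTttagaaattctc
Zfp36l2: tatttaacTTATTTATTatcttgtgaaaa
Rc3h1: tttactcaTTATTTATTgagatgaggaga
Rc3h2: aagacattTTATTTATTttactctgtaac
Tnf: tgcacttaTTATTTATTATTTATTTATTa
A match is a description of these letters and says nothing about whether the site is bound.

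The deposited values are normalized and on a log2 scale, so a difference of 1 is a doubling. They hold no read counts, the depth per library is unknown, and the linear sum of a library was 6782465 at the lowest and 7419367 at the highest. Creld1 itself had low values: 4.14 to 4.62 in stimulated cKO and 4.41 to 5.10 in stimulated control libraries, 3.82 to 4.33 in unstimulated cKO and 4.81 to 5.40 in unstimulated control libraries, and 3.70 to 4.4 in fresh cKO and 4.33 to 4.85 in fresh control libraries. It was lower in cKO by 0.36, 1.00 and 0.49 (adjusted p = 0.974, 0.103 and 0.790 with limma), and libraries of the genotypes overlapped in stimulated and in fresh cells. CD4 T cell markers (6 of 6 with a value) summed to a log2 level of 14.48 to 14.92 and naive markers (5 of 5) to 15.22 to 15.62 over the libraries. Over the libraries, markers of B cells (6 of 6) summed to 5.16 to 6.12, of cytotoxic T and natural killer cells (7 of 7) to 6.36 to 6.94, with Cd8b1 at 6.14 to 6.80, of myeloid cells (5 of 6) to 5.43 to 6.52, and of regulatory T cells (3 of 3) to 7.60 to 8.54. The lowest means were those of Gzmb, Ncr1, Csf1r and Pax5, all below 0 on the log2 scale. Libraries also differed in a GC slope, the change of a library's log2 deviation from the gene means per SD of transcript GC content, which ran from -0.312 to 0.240. In fresh cKO cells the slopes were -0.193, -0.312 and 0.159, so replicates 2 and 3 stood farthest from their group mean of all libraries, and results that rest on replicate 3 are given with and without it.

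Per kilobase of annotated exon, Zfp36l2 had the highest level of the 7 genes in every group, with 1141 and 1192 linear units per kb in stimulated cKO and control cells, 1418 and 1267 in unstimulated cKO and control cells, and 2161 and 2015 in fresh cKO and control cells. Zfp36l1 was next in every group (329 to 559 units per kb over the 6 group means), then Zfp36 (211 to 412) and Rc3h1 (135 to 174). The group means of Zc3h12a (54.7 to 137), Rc3h2 (46.8 to 62.3) and Mex3b (40.3 to 80.3) lay lowest and changed places between groups. In stimulated control cells, for example, the log2 level per kb was 5.92 ± 0.29 for Zc3h12a, 5.81 ± 0.18 for Rc3h2 and 5.78 ± 0.27 for Mex3b (SD, n = 3 each), gaps smaller than the SDs. The annotated exons of Rc3h2 total 19624 bases, against 8948 for its longest transcript. Dividing by the latter moved its log2 level to 6.68 to 7.10 in the 6 groups. With longest transcripts for all, the mean of Rc3h2 lay above that of Mex3b (5.33 to 6.33) in every group. It also lay above that of Zc3h12a except in fresh control cells (6.90 against 7.16), so its place among the lowest depends on the length used. The annotated exons of Zfp36 total 3470 bases, against 2790 for its longest transcript. With longest transcripts, Zfp36 had a log2 level of 9.0007 ± 0.337 in fresh cKO cells, against 9.056 ± 0.405 for Zfp36l1 (SD, n = 3 each). That gap was smaller than the SDs, so the order of Zfp36l1 over Zfp36 is not firm there. The mean of Zfp36l1 stayed the higher in each of the 6 groups.

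**Figure D1:**
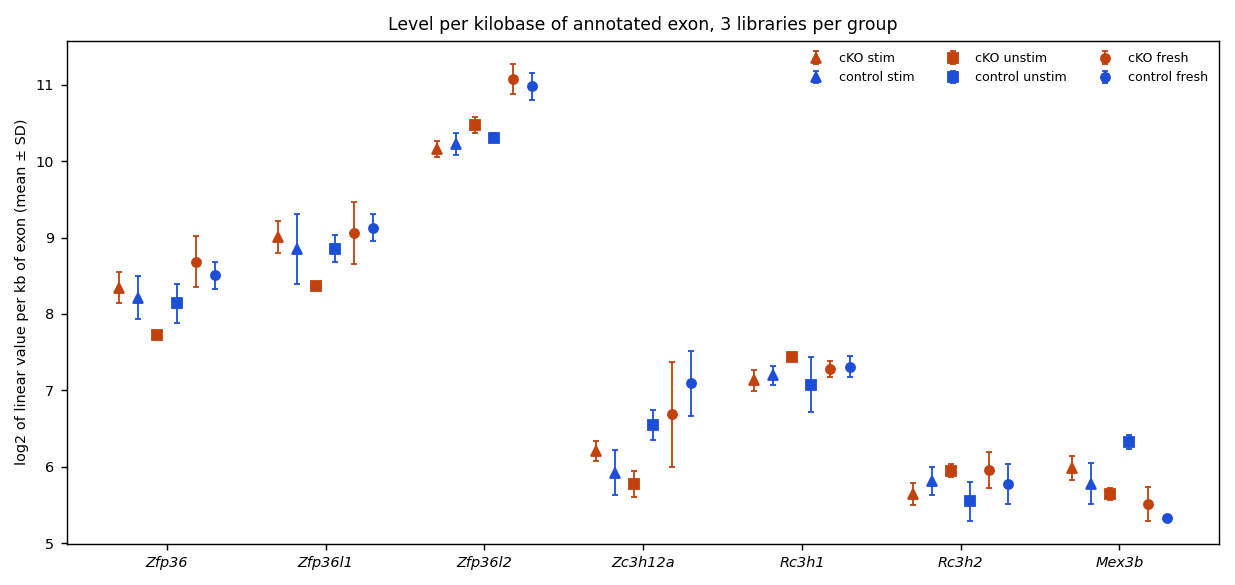
Group means (± SD, 3 libraries) of the log2 level per kilobase of annotated exon for the 7 genes, with cKO groups in red and control groups in blue and triangles, squares and circles for stimulated, unstimulated and fresh cells. Zfp36l2 lies above the other genes in every group, and Zc3h12a, Rc3h2 and Mex3b share the lowest range.

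Relative to fresh cells, the tristetraprolin gene Zfp36l2 fell in unstimulated culture in both genotypes. Zfp36, Zfp36l1 and Zc3h12a passed as lower in cKO cells, and Mex3b passed as higher in control cells. In the same fit, with equal library weights and no block or covariate, the culture effect did not pass as different between genotypes for any of the 7 genes. Zfp36l2 (gene ENSMUSG00000045817 on chromosome 17, 84183931 to 84187947, minus strand) had log2 values of 12.24, 12.21 and 12.41 in unstimulated cKO cells, against 12.89, 13.10 and 12.70 in fresh cKO cells. In control cells the values were 12.15, 12.06 and 12.17 after unstimulated culture, against 12.96, 12.62 and 12.82 fresh. No cultured library reached the lowest fresh library in either genotype. Zfp36l2 fell by 0.61 ± 0.11 in cKO cells (SE, n = 3 against 3, limma adjusted p = 9.80e-04) and by 0.67 ± 0.11 in control cells (3.95e-04), to 0.656 and 0.629 times the fresh level. It passed with each of the 18 libraries left out in turn. In stimulated cultures its values were 12.09, 11.89 and 11.94 in cKO cells and 12.21, 11.97 and 11.94 in control cells, and it fell relative to fresh cells by 0.92 (adjusted p = 2.52e-05) and by 0.76 (1.83e-04).

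Across all genes unstimulated culture moved 22.1% in cKO cells and 29% in control cells past an adjusted p of 0.05, and stimulated culture 30.3% and 18.8% relative to fresh cells. In unstimulated culture 11.4% of genes fell and 10.7% rose in cKO cells, and 14.1% fell and 14.9% rose in control cells. In stimulated culture 15.7% fell and 14.5% rose in cKO cells, and 9.26% fell and 9.58% rose in control cells. Of the 7 genes 4 fell in cKO cells after unstimulated culture, and 1 fell and 1 rose in control cells. After stimulated culture 1 fell and 1 rose in cKO cells, and 2 fell and 1 rose in control cells. Libraries of unstimulated and fresh cells were apart for 31.9% of all genes in cKO cells and for 48.6% in control cells. These comparisons share their fresh libraries within a genotype, and the unstimulated ones are shared with the stimulation comparison. In bulk RNA, fewer cells of a type and less RNA per cell cannot be told apart. Markers of memory T cells (5 of 5 with a value, 3 tested) also differed with culture. They summed to 9.39 to 9.73 in unstimulated cKO and 9.48 to 9.60 in unstimulated control libraries. In fresh libraries the sums were 10.10 to 10.25 in cKO and 10.23 to 10.38 in control cells. Ly6c1 had the highest mean of the 5 (9.015), and Cxcr3 and S100a4 the lowest (2.119 and 1.229). Of the 3 tested markers, 2 fell with unstimulated culture in cKO and 3 in control cells. Naive markers went the other way, summing to 15.57 to 15.62 and 15.60 to 15.61 in unstimulated cKO and control libraries. In fresh ones the sums were 15.23 to 15.26 and 15.22 to 15.25. Of the 5 naive markers, 2 rose in cKO and 4 in control cells. Myeloid markers (5 of 6) summed to 5.55 to 5.79 and 5.52 to 5.71 in unstimulated cKO and control libraries, against 6.05 to 6.52 and 6.25 to 6.36 in fresh ones. Their part in the differences of the decay regulators was not tested.

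Zfp36, which encodes tristetraprolin itself (ENSMUSG00000044786, chromosome 7, 28376784 to 28380253, minus strand), had values of 9.51, 9.55 and 9.49 in unstimulated cKO cells, against 10.30, 10.27 and 10.87 in fresh cKO cells. In control cells they were 9.66, 10.00 and 10.15 in unstimulated culture, against 10.11, 10.45 and 10.34 fresh, and the libraries overlapped. Zfp36 fell by 0.96 ± 0.17 in cKO cells (adjusted p = 9.01e-04), a call kept without fresh cKO replicate 3 (-0.77). In control cells the difference was -0.37 (adjusted p = 0.124), and in a fit that held the GC slope it was -0.61 (1.53e-06), where 42.9% of genes passed. In cKO cells that fit gave -0.95, where 45.4% of genes passed. The difference between the genotypes in this culture effect was -0.60 ± 0.25 and did not pass (adjusted p = 0.843).

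Zfp36l1 (ENSMUSG00000021127, chromosome 12, 80107754 to 80113013, minus strand), a paralog of Zfp36, gave 9.92, 9.93 and 9.98 in unstimulated cKO cells, against 10.45, 10.36 and 11.10 in fresh cKO cells. The control values were 10.23, 10.58 and 10.49 in unstimulated culture, against 10.56, 10.91 and 10.66 fresh. The cKO groups were apart, with fresh replicate 3 highest, and the control groups overlapped. It fell by 0.69 ± 0.21 in cKO cells (adjusted p = 0.0254), but by 0.46 without fresh cKO replicate 3, when it no longer passed. The call was also lost without any single unstimulated cKO library (highest adjusted p over the libraries left out, 0.0834), and was lost in a fit of only the compared groups (0.0728) and with default library weights (0.116). In control cells the difference was -0.27 (0.339), and with the GC slope in the fit -0.55 (5.36e-04). The culture effect on Zfp36l1 differed between the genotypes by -0.42 ± 0.30 and did not pass (adjusted p = 0.843 with limma). Annotated antisense transcripts share 1672 exonic bases with Zfp36l1, 125 with Zfp36 and 105 with Zfp36l2, and the library kit does not mark strand, so their reads cannot be told apart there.

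Zc3h12a (ENSMUSG00000042677, chromosome 4, 125118423 to 125127840, minus strand), the Regnase-1 gene, had 7.16, 7.49 and 7.26 in unstimulated cKO cells, against 8.10, 7.59 and 8.95 in fresh cKO cells. In control cells it had 7.92, 8.01 and 8.29 in unstimulated culture, against 8.17, 8.69 and 9.01 fresh. The fresh cKO libraries spread over more than a doubling, and the control groups overlapped. Zc3h12a fell by 0.91 ± 0.27 in cKO cells (adjusted p = 0.0242). Without fresh cKO replicate 3 the difference was -0.54 and did not pass, and the call was also lost without unstimulated cKO replicate 1 or 3, in a fit of only the compared groups (0.133) and with default library weights (-0.60, 0.156). In control cells the difference was -0.54 ± 0.27 (0.144). It passed without fresh cKO replicate 3 (0.0414) and with the GC slope in the fit (-0.93, 2.36e-06). The culture effect on Zc3h12a differed between the genotypes by -0.37 ± 0.38 and did not pass (adjusted p = 0.852 with limma). Without fresh cKO replicate 3 that difference was 0.00122. In stimulated control cells the values were 7.15, 7.74 and 7.46, all below the fresh control libraries, and Zc3h12a fell by 1.17 relative to them (0.00632), a call kept with each library left out. In stimulated cKO cells they were 7.63, 7.88 and 7.68, a difference of -0.48 from fresh cKO cells (0.182), which passed without fresh cKO replicate 2 (-0.80, 0.0428).

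Mex3b (ENSMUSG00000057706, chromosome 7, 82867333 to 82871515, plus strand) went the other way. In cKO cells it had 7.48, 7.35 and 7.34 after unstimulated culture, against 7.12, 7.15 and 7.52 fresh, and these overlapped. In control cells it had 7.97, 8.09 and 8.16 after unstimulated culture, against 7.12, 7.07 and 7.04 fresh, with all cultured libraries far above the fresh ones. Mex3b rose in control cells by 0.99 ± 0.14 (adjusted p = 8.04e-05, 1.99 times the fresh level), with each library left out (0.95 to 1.04) and with the GC slope in the fit (0.89). The difference in cKO cells was 0.13 (0.570). The culture effect differed between the genotypes by -0.87 ± 0.19, with an unadjusted p of 3.65e-04 and an adjusted p of 0.843, in a test that 0% of genes passed with limma (545 at an unadjusted p under 0.05). After stimulated culture Mex3b rose relative to fresh cells in cKO cells (0.47, 0.0176) and in control cells (0.45, 0.0299). Leaving out single libraries ended these calls in 4 of 18 and 5 of 18 cases, with adjusted p up to 0.0785 and 0.128, and so did fitting only the compared groups (0.113 and 0.0902). Default library weights ended the control call (0.20, 0.0646).

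Neither Roquin gene passed with unstimulated culture in either genotype in the fit of all groups with equal library weights. Rc3h1 (ENSMUSG00000040423, chromosome 1, 160906418 to 160974978, plus strand) had 10.97, 10.88 and 10.97 in unstimulated cKO cells, against 10.78, 10.89 and 10.67 in fresh cKO cells, and 10.82, 10.75 and 10.16 in unstimulated control cells, against 10.97, 10.76 and 10.71 in fresh control cells. All of these ranges overlapped, with replicate 3 of the unstimulated control cells lowest. Rc3h2 (ENSMUSG00000075376, chromosome 2, 37370069 to 37422903, minus strand) had 10.31, 10.15 and 10.26 in unstimulated cKO cells, against 10.40, 10.39 and 9.98 in fresh cKO cells, and 10.06, 9.92 and 9.56 in unstimulated control cells, against 10.37, 9.96 and 9.87 in fresh control cells. The culture differences of Rc3h1 were 0.16 in cKO cells (95% interval -0.14 to 0.45, adjusted p = 0.470) and -0.23 in control cells (-0.53 to 0.06, 0.214). Those of Rc3h2 were -0.02 (-0.35 to 0.31, 0.959) and -0.22 (-0.55 to 0.11, 0.292). Relative to fresh cells, stimulated cKO cells differed in Rc3h2 by -0.32 (0.128), and without fresh cKO replicate 3 by -0.45 (0.0221), where 53.4% of genes passed.

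**Figure D2:**
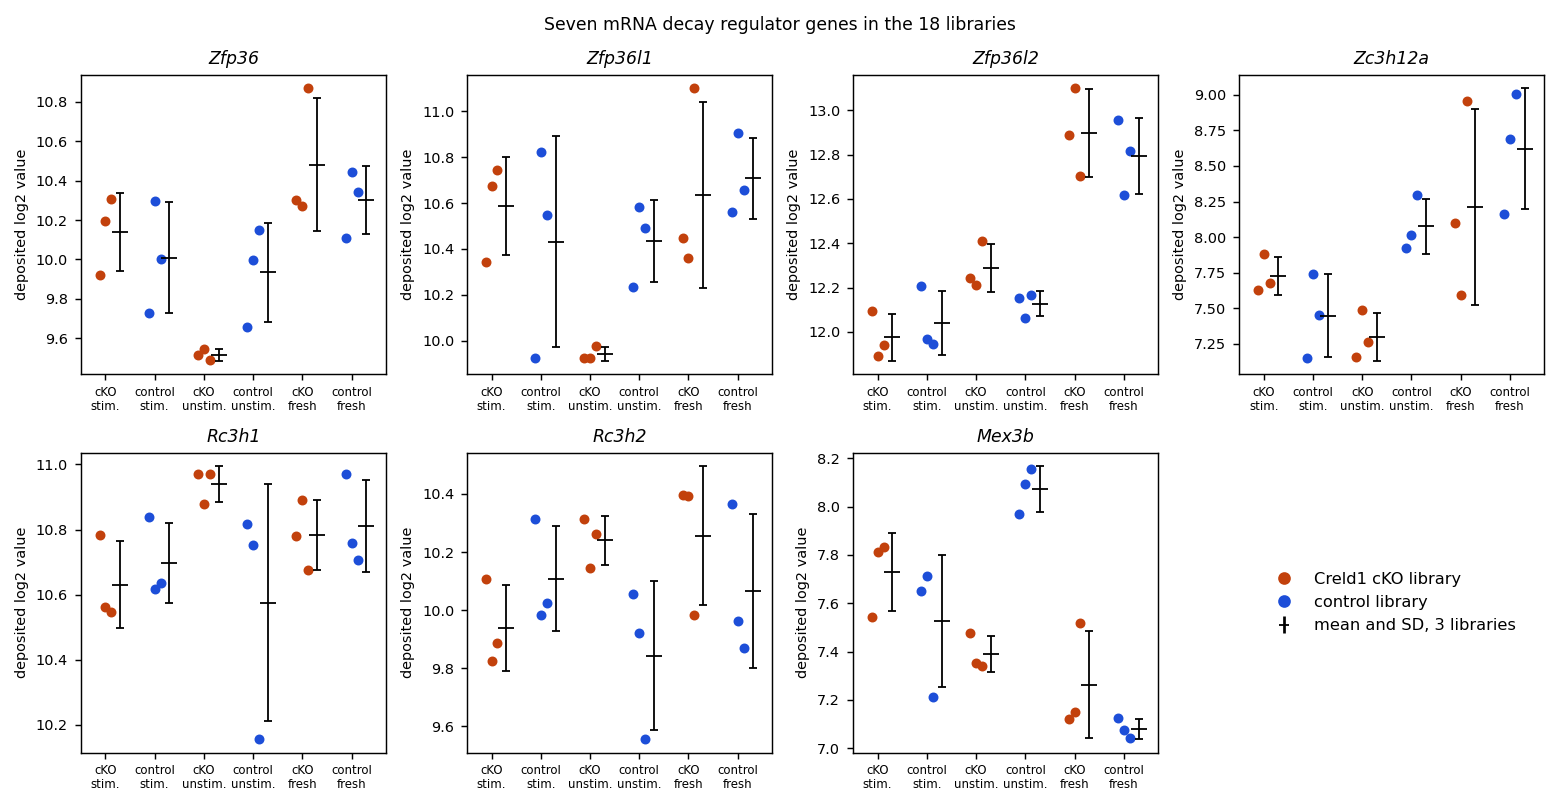
Deposited log2 values of the 7 genes in each of the 18 libraries (points, red for cKO and blue for control) with the mean and SD of each group of 3. Zfp36l2 is higher in all fresh than in all cultured libraries, Mex3b is highest in unstimulated control libraries, and replicate 3 of the fresh cKO cells is the highest library for Zfp36 and Zfp36l1.

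In the fit of all groups with equal library weights and no block or covariate, none of the 7 genes passed with 8 h of stimulation in either genotype, where 0.285% of genes passed in cKO cells and 0.349% in control cells. Relative to unstimulated cKO cells, the stimulated cKO libraries lay entirely above for Zfp36 (difference 0.62, adjusted p = 0.149), Zfp36l1 (0.65, 0.187), Zc3h12a (0.43, 0.308) and Mex3b (0.34, 0.201). They lay entirely below for Zfp36l2 (-0.31, 0.192), Rc3h1 (-0.31, 0.212) and Rc3h2 (-0.30, 0.234). Such a separation of the libraries was also seen in 42.3% of all tested genes in cKO cells. Without fresh cKO replicate 3, which enters through the shared spread, Zfp36 passed (0.0392), where 3.09% of genes did, and in a fit of only the compared groups 6 of the 7 passed, where 21.6% of genes did. With library weights, default or gene by gene, all 7 passed, as did 6169 and 5766 of the 10877 genes. The stimulated cKO libraries had 9.92, 10.20 and 10.31 for Zfp36, and 10.34, 10.68 and 10.74 for Zfp36l1. The GC slope separated these groups as well, at -0.028 to 0.151 in stimulated cKO libraries and -0.185 to -0.066 in unstimulated cKO libraries. With it in the fit the differences were 0.28 for Zfp36, 0.26 for Zfp36l1 and -0.11 for Zc3h12a, the last with its sign turned.

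In control cells stimulated and unstimulated libraries overlapped for 5 of the genes. They were apart for Zc3h12a, with 7.15, 7.74 and 7.46 in stimulated and 7.92, 8.01 and 8.29 in unstimulated cells (-0.63, adjusted p = 0.411), and for Mex3b, with 7.65, 7.71 and 7.21 in stimulated and 7.97, 8.09 and 8.16 in unstimulated cells (-0.55, 0.117). Among all genes 20.5% were apart. Without fresh cKO replicate 3 Mex3b passed (0.0384), where 1.14% of genes did. Mex3b and Zc3h12a passed with both library weights and Zfp36l2 with the default ones, as did 6301 genes by default and 2697 gene by gene. With the GC slope in the fit, where 2.95% of genes passed, Zfp36 rose by 0.31 (0.0211) and Mex3b fell by 0.45 (0.0416) in control cells.

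**Figure D3:**
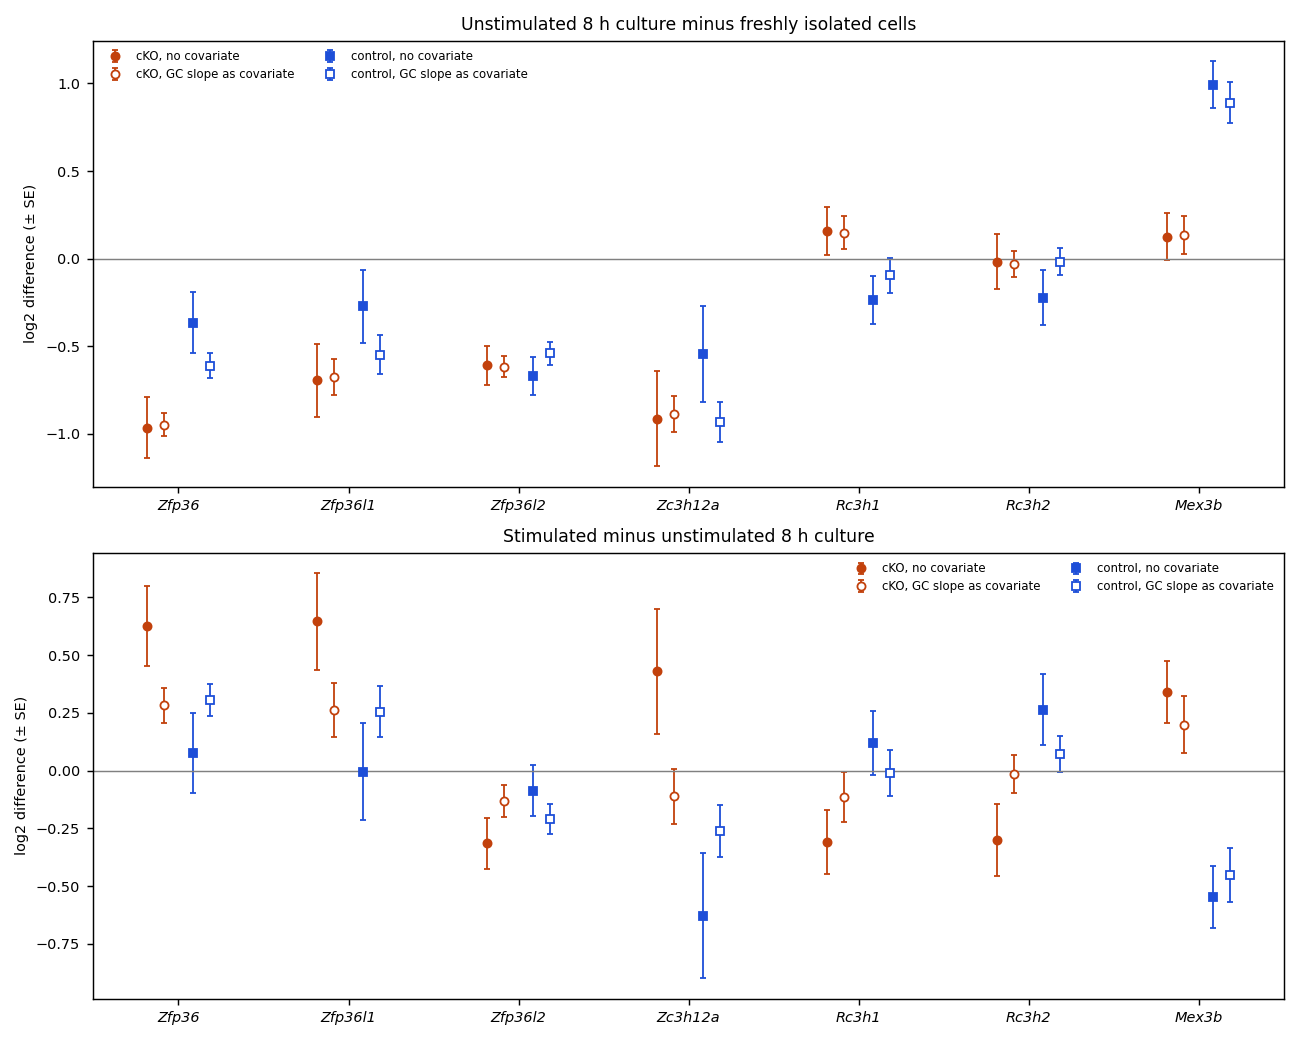
Log2 differences (± SE) of the 7 genes for unstimulated culture minus fresh cells (top) and stimulated minus unstimulated culture (bottom), in cKO (circles) and control cells (squares), from fits without (filled) and with the GC slope (open). The falls of Zfp36, Zfp36l1, Zfp36l2 and Zc3h12a with culture lie below 0 under both fits, and Mex3b lies near 1 with culture in control cells.

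No member passed between genotypes in any condition in the fit of all groups with equal library weights and no block or covariate. In unstimulated culture, where 0% of genes passed by limma although 3606 had an unadjusted p under 0.05, cKO libraries lay apart from control libraries for all 7 genes, and so did 52.1% of all tested genes. Mex3b had 7.48, 7.35 and 7.34 in cKO and 7.97, 8.09 and 8.16 in control cultures, a difference of -0.68 ± 0.14 (adjusted p = 0.103). Zc3h12a had 7.16, 7.49 and 7.26 in cKO and 7.92, 8.01 and 8.29 in control cultures (-0.78, 0.103). Zfp36 (-0.42, 0.120) and Zfp36l1 (-0.49, 0.125) were also lower by value in cKO cultures, and Zfp36l2 (0.16, 0.284), Rc3h1 (0.36, 0.107) and Rc3h2 (0.40, 0.109) higher by value. Of the marker sums listed for other cell types, those of regulatory T cells and of B cells were also apart here. The sums for cytotoxic T and natural killer cells, myeloid cells and memory T cells overlapped between the genotypes. Regulatory T cell markers summed to 7.97 to 8.16 in cKO and 7.60 to 7.76 in control cultures, and B cell markers to 5.32 to 5.60 and 5.72 to 6.07. Regulatory T cell markers were apart in fresh cells too, at 8.16 to 8.47 in cKO and 7.95 to 8.03 in control cells. Only 2 of the 6 B cell markers reached the tested level. None of these 2 or of the 3 regulatory T cell markers passed between genotypes in unstimulated culture. Il2ra, in the regulatory list, is also among the target transcripts given below. Whether the cells differed in type was not tested, nor was the part of these markers in the differences of the 7 genes.

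The count of calls here depended on a library outside the comparison. Without fresh cKO replicate 3, which enters through the shared estimate of the spread, 26.1% of genes passed in unstimulated culture, among them Mex3b (adjusted p = 0.0181), Zc3h12a (0.0202), Zfp36 (0.0435), Rc3h2 (0.0462) and Zfp36l1 (0.0469), with the same differences. A fit of only the 2 groups compared gave 34.4% and the same 5 genes (adjusted p of 0.00351 to 0.0318). With library weights all 7 genes passed, as did 7292 of the 10877 genes by default and 6125 gene by gene. The GC slope separated the genotypes in this condition too, at -0.185 to -0.066 in cKO and 0.064 to 0.240 in control cultures. With the slope in the fit 0% of genes passed, and the differences were 0.02 for Zfp36, -0.00 for Zfp36l1, -0.07 for Zfp36l2, -0.09 for Zc3h12a, 0.12 for Rc3h1, 0.03 for Rc3h2 and -0.50 ± 0.13 for Mex3b (unadjusted p = 0.00133, adjusted p = 0.535). The slope is itself estimated from the values of all genes.

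In stimulated culture, where 0% of genes passed by limma with or without fresh cKO replicate 3 (160 had an unadjusted p under 0.05), the differences between cKO and control cells ran from -0.17 for Rc3h2 to 0.28 for Zc3h12a, and the libraries of the genotypes overlapped for all 7 genes (they were apart for 6.19% of all genes). The 95% interval for Zfp36l2, the narrowest, was -0.30 to 0.17. In fresh cells, where 0.00919% of genes passed, the differences ran from -0.41 for Zc3h12a to 0.19 for Rc3h2, again with overlap in all 7 (apart for 4.31% of all genes). Averaged over the 3 conditions, where 0.0184% of genes passed, no member passed with equal weights. Zc3h12a passed in that average without fresh cKO replicate 3 (-0.42, adjusted p = 0.0392 with limma), where 14.9% of genes did. Without fresh cKO replicate 3, when 11% of genes passed, Zc3h12a was lower in fresh cKO cells by 0.78 (adjusted p = 0.0441). With the GC slope in the fit Zfp36 differed by 0.35 ± 0.07 in fresh cells (adjusted p = 0.153). The response to stimulation differed between genotypes by 0.89 ± 0.19 for Mex3b and 1.06 ± 0.38 for Zc3h12a (adjusted p = 0.166 each), where 0.00919% of genes passed, and both passed without fresh cKO replicate 3 (0.0416 each), where 15.3% did.

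**Figure D4:**
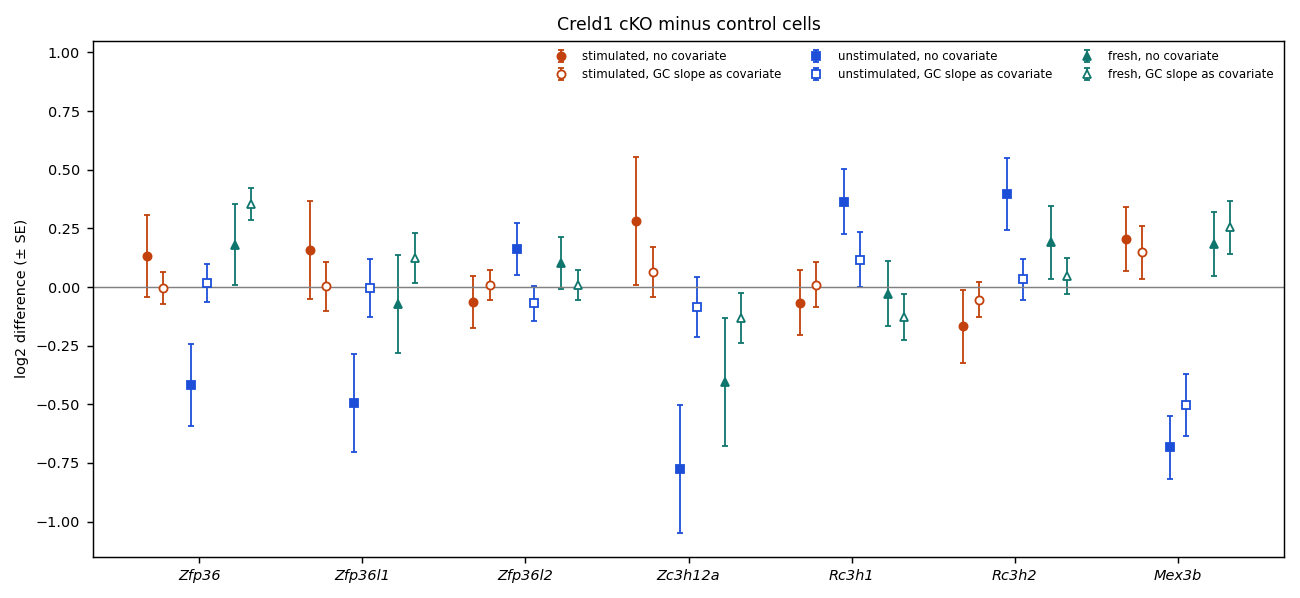
Log2 differences (± SE) between cKO and control cells for the 7 genes in stimulated (circles), unstimulated (squares) and fresh cells (triangles), from fits without (filled) and with the GC slope (open). In unstimulated cells the genes other than Mex3b lie between -0.09 and 0.12 once the GC slope is in the fit.

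Within groups several of the 7 genes moved with the GC slope of the library. The library with the highest slope had the highest value of its group for Zfp36 in 5 of 6 groups and for Zc3h12a in 5 of 6, and the lowest value for Rc3h2 in 5 of 6 and for Rc3h1 and Zfp36l2 in 4 of 6 each. Per 0.1 of slope the values changed by 0.25 for Zc3h12a, 0.18 for Zfp36l1, 0.16 for Zfp36, 0.06 for Mex3b, -0.08 for Zfp36l2, -0.09 for Rc3h1 and -0.13 for Rc3h2 on the log2 scale. Transcript GC content was 57.1% for Zc3h12a and 38.8% for Rc3h2, higher than in 89.2% and 4.12% of tested genes. It was 54.8% for Zfp36l2, higher than in 78.8% of tested genes, although Zfp36l2 fell with the slope.

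**Figure D5:**
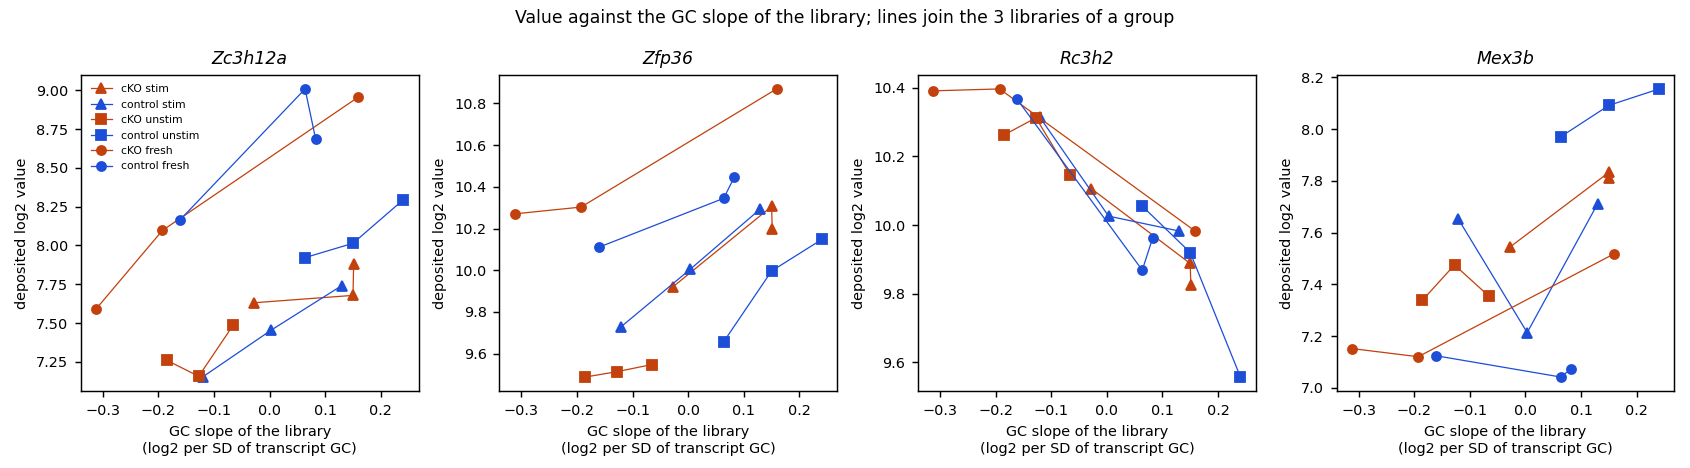
Deposited log2 value against the GC slope of the library for Zc3h12a, Zfp36, Rc3h2 and Mex3b, with lines joining the 3 libraries of a group (red for cKO, blue for control). Within groups Zc3h12a and Zfp36 rise and Rc3h2 falls along the slope, and unstimulated control libraries of Mex3b lie above the rest.

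Over the 18 libraries Zfp36 and Zfp36l1 had a correlation of 0.918, and Rc3h1 and Rc3h2 of 0.861. Zfp36l2 and Mex3b had a correlation of -0.695. These are descriptions over libraries that share groups and GC slopes. Among 7815 tested genes with a group mean of at least 100 linear units, the pattern most like Zfp36 was that of Myc (r = 0.949), then Ddx27 (0.935) and Rrp9 (0.931). The closest to Zfp36l1 were Fbl (0.953), Akr1b3 (0.951) and Ddx27 (0.947), and to Zfp36l2 Tnfsf10 (0.982), Ranbp9 (0.980) and Oser1 (0.979). Those closest to Zc3h12a were Pik3r5 (0.974), Esyt1 (0.967) and Atp2a3 (0.967). For Rc3h1 they were Phip (0.931), Zfp871 (0.919) and Phc3 (0.916), and for Rc3h2 Pbrm1 (0.974), Pank3 (0.967) and Yme1l1 (0.961). Among those closest to Mex3b were Pink1 (0.927) and Trib3 (0.917).

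The promoters of Zfp36 and Mex3b are shown because Zfp36 fell with culture in cKO cells and Mex3b rose with it in control cells. RefSeq windows on GRCm38.p6, each of 300 bases around the annotated start, were found for 6 of the 7 genes, and motifs were searched on both strands. Among 8600 promoters of tested genes, the EGR motif GCGGGGGCG stood in 5.19%, the CRE core TGACG in 33.3%, the AP-1 motif TGANTCA in 4.58% and the TATA motif TATAAA in 6.76%. The window of Zfp36 (chr7:28379179-28379478, minus strand) held the EGR motif, that of Mex3b (chr7:82867083-82867382, plus strand) and that of Zc3h12a the CRE core, those of Zfp36l1 and Rc3h1 an AP-1 motif, and that of Zfp36l1 also TATAAA. Capitals mark the motif.
Zfp36: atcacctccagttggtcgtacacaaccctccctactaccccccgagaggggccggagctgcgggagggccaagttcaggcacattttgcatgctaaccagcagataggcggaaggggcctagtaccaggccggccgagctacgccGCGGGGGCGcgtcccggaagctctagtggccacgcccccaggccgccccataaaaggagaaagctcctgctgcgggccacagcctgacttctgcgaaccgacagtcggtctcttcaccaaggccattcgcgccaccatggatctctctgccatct
Mex3b: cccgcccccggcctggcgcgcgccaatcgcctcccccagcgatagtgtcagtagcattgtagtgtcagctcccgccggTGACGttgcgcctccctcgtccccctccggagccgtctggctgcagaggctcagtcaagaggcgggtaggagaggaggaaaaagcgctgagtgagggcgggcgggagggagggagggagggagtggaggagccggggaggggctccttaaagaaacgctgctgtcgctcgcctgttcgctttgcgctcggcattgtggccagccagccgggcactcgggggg

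Related genes moved with culture in both directions. Of 8 relatives of the 7 genes, 6 were tested. Zc3h12d, which encodes Regnase-4, rose in unstimulated culture by 0.69 in cKO (adjusted p = 5.97e-05) and 0.69 in control cells (5.31e-05). Mex3c, a paralog of Mex3b, fell by 0.70 in cKO (0.00155) and by 0.97 in control cells (9.92e-05), the direction opposite to that of Mex3b in control cells. N4bp1, a ribonuclease gene, rose by 0.29 in control cells (0.00511), and its difference in cKO cells was 0.19 (0.0573), with the cultured libraries above the fresh ones in both.

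Transcripts known as targets of these proteins were tested for 19 of 26 listed genes. Il2, Ifng and Ier3 lay below the minimum level, and Csf2, Il3, Il10 and Il6 had no value. Stimulation raised 1 of 19 in cKO cells, Tnf by 1.25 (adjusted p = 0.00190 with limma), where 0.276% of all genes rose. In control cells, where 0.313% of all genes rose, 3 of 19 did. These were Icos by 0.83 (0.0115), Il2ra by 1.20 (0.0309) and Irf4 by 1.10 (0.0395). The list was chosen with earlier results of these data known. The values of the same genes in the other genotype were 0.78 for Tnf in control cells (0.0628) and 0.52, 1.09 and 1.02 for Icos, Il2ra and Irf4 in cKO cells (0.116, 0.0525 and 0.0643). The median difference of the 19 genes was 0.35 in cKO and 0.18 in control cells, beside 0.01 and -0.02 over all tested genes.

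With unstimulated culture 3 of the 19 target genes rose and 9 fell in cKO cells, where 10.7% of all genes rose and 11.4% fell. In control cells 3 rose and 7 fell, where 14.9% of all genes rose and 14.1% fell. The differences had medians of -0.40 and -0.28 beside -0.02 and 0.04 over all genes. Cd69, an early activation receptor, fell by 1.83 in cKO and by 1.94 in control cells, and Nfkbiz, an atypical inhibitor of NF-kB, by 1.55 and by 1.4. Ctla4, an inhibitory receptor, fell by 1.08 and by 1.24 (adjusted p of all 3 at most 5.67e-06 in cKO and 1.18e-06 in control cells). Bcl2, Foxo1 and Tfrc were among the others that fell in both genotypes, Myc and Nfkbid passed in cKO cells, and Tnfrsf4, Cdkn1a and Irf4 rose in both.

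With stimulation, where 0.285% of all genes passed in cKO and 0.349% in control cells, 0 of 20 deadenylation genes, 0 of 21 decapping and 5′ decay genes, 0 of 14 exosome and SKI genes, 0 of 10 nonsense-mediated decay genes and 0 of 17 other AU-rich or 3′ end binding proteins passed in either genotype, counts near that background. Among 21 regulators and partners, Malt1 passed in control cells (0.62, adjusted p = 0.0309; 0.20 in cKO cells, 0.269). With unstimulated culture 11.4% of all genes fell and 10.7% rose in cKO cells, and 14.1% fell and 14.9% rose in control cells. Of the 20 deadenylation genes 3 fell in cKO and 6 in control cells, and none rose. In the decapping list 1 rose and 3 fell in cKO and 5 fell in control cells. In the exosome list 3 fell in cKO cells, and 2 rose and 1 fell in control cells. Of the nonsense-mediated decay genes 1 fell in cKO and 2 in control cells, and of the other binding proteins 6 and 5. Of the regulators and partners 2 rose and 5 fell in cKO, and 3 rose and 5 fell in control cells. Named after their values were seen, the decapping cofactor gene Pnrc1 fell by 1.36 in cKO and by 1.23 in control cells, and Btg1, whose product binds CCR4-NOT, by 0.63 and by 0.83. No gene of these lists passed between genotypes in any condition in the fit with equal weights.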

How the data were processed

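Per the labels' protocols, the sort gate was CD3+CD4+CD25-CD62L+CD44-, and libraries were made from 10 ng of RNA with a TruSeq version 2 kit, which does not mark strand, and read as 75 bp single ends. The submitters' processing notes name the build mm10 and, without roles, Partek 6.6, HISAT2 2.1.0, DESeq2, CASAVA 1.8 and SAMtools 1.4. The authors deposited 1 normalized log2 value per gene symbol and library (-1.36 to 17.2). That the base is 2 was taken from the values. The sources used here do not give the normalization.

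A gene was tested if 3 or more of the 18 libraries reached 10 on the linear scale (10877 genes). The 6 group means were fitted in limma 3.58.1 (R 4.3.3) with a trended prior variance, 12 residual degrees of freedom, two-sided tests, Benjamini-Hochberg adjustment over all tested genes and a threshold of 0.05. No pseudocount was added. Gene lengths, GC content and 3′ UTRs came from GENCODE on GRCm38, which matched 15044 symbols. The fit was tested on simulated data. Named genes were the 7 members, Creld1, the 3 genes most like each member, and, from each other list, the 2 largest rises and falls that passed with stimulation in control cells; any target or relative could be named. The members and lists were chosen with earlier results of these data known. Alternatives changed the scaling, the filter, the pseudocount, the prior variance, the groups fitted and the library weights, added a block of library numbers or the GC slope, or left libraries out. No libraries held identical values (0 pairs). Some genes that this rule would name are not reported here.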

Additional observations from a re-analysis of the deposited data

Results flagged for a closer look

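The response of Zc3h12a to stimulation differed by 1.056 on the log2 scale between genotypes. It drew attention because all stimulated libraries lay above the unstimulated ones in cKO cells and all lay below in control cells. Among all tested genes 23.9% lay entirely above in cKO cells and 10.3% entirely below in control cells. The share of genes with both was not computed. The interaction was tested and did not pass (adjusted p = 0.166 with limma), except without fresh cKO replicate 3 (0.0416), in the fit of only the groups compared (0.0306), with library weights (at most 4.47e-04) and without the 2 libraries farthest in GC slope (0.0470). Of all tested genes 15.3% passed without fresh cKO replicate 3 and 21.8% in the fit of only the groups compared. With library weights most genes passed. With the GC slope in the fit the interaction of Zc3h12a was 0.15 (0.999).

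Mex3b showed the same arrangement of libraries, with a difference of 0.8872 between genotypes (unadjusted p = 2.93e-04, adjusted p = 0.166). It passed without fresh cKO replicate 3 (0.0416), in the fit of only the groups compared (0.0306), with library weights (at most 2.70e-04) and without the 2 libraries farthest in GC slope (0.0470). The shares of all genes that passed in these settings are those given above for Zc3h12a. With the GC slope in the fit the difference of Mex3b was 0.65 (adjusted p = 0.999).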

How the results depend on the processing

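The calls kept with each library left out were those of Zfp36l2 with culture in both genotypes, Zfp36 in cKO cells, Mex3b in control cells, and Zfp36l2 in both genotypes and Zc3h12a in control cells after stimulated culture. No called difference of a member changed sign; of the 79 that did (32 with a library left out), 0 had passed. The causes were not tested. The block used runs of library numbers, and the values do not decide whether a run pairs its samples. Deviations of same-run libraries had a median correlation of 0.134 (-0.683 to 0.689, 45 pairs). For libraries of different runs and different groups it was -0.0671 (-0.831 to 0.796, 90 pairs). With the block, Zfp36 passed in cKO cells with stimulation (0.0385 with limma) and in control cells with culture (0.0447). Rc3h2 passed in stimulated against fresh cKO cells (0.0289), and Rc3h2 and Mex3b between genotypes in unstimulated culture (0.0485 each). The block changed no other call of a member. The default library weights stopped before convergence (0.0122 to 14.2), and gene-by-gene weights (0.115 to 4.11) were chosen after seeing the data. Fresh cKO replicate 1 had a weight of 0.0122 in one and 3.31 in the other. With default and gene-by-gene weights, members passed between genotypes in 7 and 7 of 7 cases in unstimulated, 1 and 0 in stimulated and 0 and 2 in fresh cells, in 4 and 3 averaged over conditions, and in 7 and 6 for stimulation by genotype. Most of all tested genes passed as well with both weights in unstimulated culture and for stimulation by genotype. Gene by gene, most passed in fresh cells too. Counts over all genes with these weights follow below. Depth is unknown, so no counting error could be given.

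The counts of genes past the threshold were 31 for stimulation in cKO, 38 for stimulation in control, 2408 for culture in cKO, 3151 for culture in control, 3294 for stimulated against fresh cKO and 2049 for stimulated against fresh control. They were 1 for genotype in fresh, 0 for genotype in unstimulated, 0 for genotype in stimulated, 2 for averaged genotype, 1 for stimulation by genotype and 0 for culture by genotype.

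With only the groups compared they were 2349 for stimulation in cKO, 7 for stimulation in control, 811 for culture in cKO, 753 for stimulated against fresh cKO and 0 for genotype in fresh. They also were 3737 for genotype in unstimulated and 2373 for stimulation by genotype. With default library weights they were 6169 for stimulation in cKO, 6301 for stimulation in control, 6444 for culture in control, 5316 for stimulated against fresh control and 7292 for genotype in unstimulated. They also were 2344 for genotype in stimulated, 3569 for averaged genotype and 7103 for stimulation by genotype. With gene-by-gene weights they were 5766 for stimulation in cKO, 2697 for stimulation in control, 5265 for culture in cKO, 5469 for culture in control and 7326 for stimulated against fresh cKO. They also were 4122 for stimulated against fresh control, 5512 for genotype in fresh, 6125 for genotype in unstimulated, 1 for genotype in stimulated and 5173 for averaged genotype. They also were 5905 for stimulation by genotype and 85 for culture by genotype. With the replicate block they were 153 for stimulation in cKO, 887 for genotype in unstimulated and 7 for averaged genotype. With the GC slope in the fit they were 72 for stimulation in cKO, 321 for stimulation in control, 4935 for culture in cKO, 4463 for stimulated against fresh control and 9 for averaged genotype. With the replicate block and GC slope they were 139 for stimulation in cKO, 240 for stimulation in control, 5008 for culture in cKO, 4527 for stimulated against fresh control and 11 for averaged genotype. They also were 0 for stimulation by genotype and 1 for culture by genotype. With 2 libraries far in GC slope left out they were 186 for stimulation in cKO, 99 for stimulation in control, 2786 for genotype in unstimulated, 1 for averaged genotype and 1397 for stimulation by genotype. With quantile normalization they were 61 for stimulation in control, 1 for genotype in unstimulated and 1 for averaged genotype. With a minimum of 50 they were 0 for genotype in fresh, 0 for averaged genotype and 0 for stimulation by genotype. With no filter they were 5 for genotype in unstimulated, 1 for averaged genotype and 3 for stimulation by genotype. With a pseudocount of 0.5 they were 2 for genotype in unstimulated. With a pseudocount of 5 they were 2 for genotype in unstimulated. With no trend they were 2 for genotype in unstimulated. With TMM-type scaling they were 1 for averaged genotype.

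With 1 library left out they ranged from 11 to 336 for stimulation in cKO, 4 to 124 for stimulation in control, 1953 to 5797 for stimulated against fresh cKO, 1 to 1193 for genotype in fresh and 0 to 2837 for genotype in unstimulated. Further ranges were 1 to 1617 for averaged genotype and 1 to 1657 for stimulation by genotype.

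Under the GC slope in the fit signs turned to give -0.11 for Zc3h12a (stimulation in cKO), 0.26 for Zfp36l1 and -0.00983 for Rc3h1 (stimulation in control) and 0.0324 for Rc3h1 (stimulated against fresh cKO). Others were 0.12 for Zfp36l1 (genotype in fresh), 0.0182 for Zfp36 and -0.0689 for Zfp36l2 (genotype in unstimulated) and -0.00498 for Zfp36, 0.00890 for Zfp36l2 and 0.0107 for Rc3h1 (genotype in stimulated). Others were 0.12 for Zfp36, 0.0410 for Zfp36l1 and -0.0171 for Zfp36l2 (averaged genotype), -0.0231 for Zfp36 and 0.0778 for Zfp36l2 (stimulation by genotype) and -0.0776 for Zfp36l2, 0.0463 for Zc3h12a and -0.0137 for Rc3h2 (culture by genotype). Under the replicate block and GC slope signs turned to give -0.12 for Zc3h12a (stimulation in cKO), 0.22 for Zfp36l1 (stimulation in control) and 0.0954 for Zfp36l1 and -0.00428 for Zfp36l2 (genotype in fresh). Others were -0.10 for Zfp36l2 (genotype in unstimulated), 0.0191 for Zfp36l2 (genotype in stimulated) and 0.0980 for Zfp36, 0.0154 for Zfp36l1 and -0.0289 for Zfp36l2 (averaged genotype). Others were 0.12 for Zfp36l2 (stimulation by genotype) and -0.0971 for Zfp36l2 and 0.0544 for Zc3h12a (culture by genotype). Under TMM-type scaling signs turned to give 0.00474 for Zfp36l1 (stimulation in control). Under gene-by-gene weights signs turned to give 0.000871 for Zfp36l1 and -0.0451 for Rc3h1 (stimulation in control), 0.21 for Zfp36l1 (stimulated against fresh cKO) and -0.0504 for Zfp36 and 0.0448 for Rc3h1 (genotype in fresh). Others were -0.0700 for Rc3h2 (culture by genotype). Under default library weights signs turned to give -0.0878 for Rc3h1 (stimulation in control), 0.19 for Zfp36l1 (stimulated against fresh cKO) and 0.11 for Rc3h1 (genotype in fresh). Others were 0.00768 for Mex3b (averaged genotype) and -0.0808 for Zfp36l2, 0.20 for Zc3h12a and -0.0151 for Rc3h2 (culture by genotype). Under quantile normalization signs turned to give 0.0693 for Rc3h2 (culture in cKO) and 0.0644 for Zfp36l1 (stimulated against fresh cKO). Under 2 libraries far in GC slope left out signs turned to give 0.14 for Zfp36l1 (stimulated against fresh cKO). With 1 library left out, differences that changed sign ranged from -0.0675 to 0.22 for Zfp36 (stimulation in control), -0.20 to 0.25 for Zfp36l1 (stimulation in control), -0.0881 to 0.24 for Rc3h1 (stimulation in control) and -0.15 to 0.0535 for Rc3h2 (culture in cKO). Further ones ranged from -0.19 to 0.18 for Zfp36l1 (stimulated against fresh cKO), -0.0616 to 0.19 for Rc3h2 (stimulated against fresh control), -0.0133 to 0.29 for Zfp36 (genotype in fresh) and -0.30 to 0.0676 for Zfp36l1 (genotype in fresh). Further ones ranged from -0.000809 to 0.20 for Zfp36l2 (genotype in fresh), -0.0826 to 0.0507 for Rc3h1 (genotype in fresh), -0.00850 to 0.27 for Zfp36 (genotype in stimulated) and -0.0967 to 0.35 for Zfp36l1 (genotype in stimulated). Further ones ranged from -0.12 to 0.0203 for Zfp36l2 (genotype in stimulated), -0.14 to 0.00416 for Rc3h1 (genotype in stimulated), -0.0998 to 0.0125 for Zfp36 (averaged genotype) and -0.0349 to 0.16 for Zfp36l2 (culture by genotype). Further ones ranged from -0.68 to 0.00122 for Zc3h12a (culture by genotype).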
